A study of Mus musculus with 30 samples.

Results

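The genes described here encode the subunits of respiratory complexes II, III, IV and V, the mitochondrial machinery of oxidative phosphorylation downstream of complex I. They were chosen by symbol, as the *Sdha* to *Sdhd*, *Uqcr*, *Cyc1*, *Cox4* to *Cox8*, *Atp5*, *mt-Co*, *mt-Cytb* and *mt-Atp* genes, without the rows named as pseudogenes. Among 36103 genes counted, 60 carried such a symbol, 7 were left out as pseudogenes, and 53 members remained, 4 of complex II, 10 of complex III, 21 of complex IV and 18 of complex V. Among them 48 are encoded in the nucleus and 5 in the mitochondrial genome. *Cox6c2*, which the annotation calls a processed pseudogene, kept its place because its symbol fitted.

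Messenger RNA was sequenced from whole gastrocnemius, diaphragm, heart and liver of male mice aged 5 weeks on a pure 129Pas background. *Mtm1*-/y mice (Mtm1KO in the labels), a constitutive knock-out of the X-linked gene for the phosphoinositide phosphatase myotubularin and a model of X-linked myotubular myopathy, were compared with wild-type (WT) littermates. No other allele or agent was given for either genotype. There were 4 WT and 4 *Mtm1*-/y libraries of gastrocnemius, 4 and 4 of heart, 4 WT and 3 *Mtm1*-/y libraries of diaphragm, and 3 WT and 4 *Mtm1*-/y libraries of liver. The study's methods count 3 mice for WT liver and *Mtm1*-/y diaphragm and 4 for each other group. Within a tissue the p-values below therefore measure the spread between mice. The labels do not say whether libraries of different tissues came from the same mice, and fits over tissues treat them as independent.

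Electrons enter the chain at complex I or at complex II (succinate dehydrogenase), pass through ubiquinone to complex III (the cytochrome bc1 complex) and through cytochrome c to complex IV (cytochrome c oxidase), which reduces oxygen. The proton gradient built on the way drives complex V, the ATP synthase. Several complex IV subunits exist as tissue isoforms. Heart and skeletal muscle use *Cox6a2*, *Cox7a1* and *Cox8b*, whereas *Cox6a1*, *Cox7a2* and *Cox8a* are the forms of liver and most other tissues. *Cox4i2* is a lung isoform that responds to oxygen, *Cox6b2* is a testis isoform, and *Atp5g1*, *Atp5g2* and *Atp5g3* encode the same mature c subunit of the ATP synthase.

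The libraries held between 24873817 and 44289343 counts. *Mtm1* was lower in the *Mtm1*-/y libraries of each tissue, with 18.8 to 20.6 counts per 1000000 counts of the library (CPM) in WT and 3.98 to 5.33 CPM in *Mtm1*-/y gastrocnemius, 25.1 to 31.7 and 4.07 to 4.83 CPM in heart, 18.7 to 28.5 and 4.39 to 4.88 CPM in diaphragm, and 12.5 to 19.0 and 3.37 to 6.40 CPM in liver. Defining markers fitted the labels of gastrocnemius, heart and liver, whereas several diaphragm libraries also held many liver transcripts. The summed level of 15 hepatocyte markers ran from 600.8 to 60188 CPM across the 7 diaphragm libraries, and stayed below 185 CPM in every gastrocnemius and heart library. It was 171821 to 209179 CPM in liver. *Mtm1*-/y diaphragm library 2 had 60188 CPM of hepatocyte and 47067 CPM of fast muscle fibre markers, and WT diaphragm library 1 had 48817 and 51154 CPM. WT heart library 4 stood apart from the other hearts, as described with the heart results.

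Some members may be read too low where their 50-base reads are not unique in the genome. The authors counted uniquely aligned reads only, and 32 of the 53 members share at least one 50-base stretch, on either strand, with another annotated transcript. Some of these stretches belong to genes that overlap the member at the same place rather than to copies elsewhere. *mt-Co2* shares 100% of its stretches with *Gm28661*, *mt-Co3* 99.9% with *Gm28437* and *mt-Atp6* 99.5% with *Gm10925*. No library held more than 12 counts of any of these 3 genes, which encode core subunits of complexes IV and V. *Cox7b2*, a paralog of *Cox7b*, shares 0% of its stretches and had 0 to 3 counts in every library. These 4 members failed the filter on low counts in every tissue and were not tested. Another 4, *Cox4i2*, *Cox6a2*, *Cox6c2* and *Cox8b*, failed in liver alone, so that 49 members were tested in the muscles and heart and 45 in liver. Levels of *Cox6c2*, with 52.8% of its stretches shared, *mt-Co1* (51.1%), *Atp5g2* (38.3%), *Uqcrb* (25.5%) and *Cox7c* (22.1%) leave out the shared reads and may be too low. *Atp5o* shares 41.6%, but genes on the other strand at the same place overlap 35.6% of its exon bases, and such reads can still align uniquely. On its own strand 12.3% of its exon bases overlap another gene, and how many reads it loses is not known.

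The first comparison asked which subunits changed with genotype in the gastrocnemius, a fast limb muscle. Of 49 tested members 30 passed (edgeR quasi-likelihood test, adjusted p under 0.05), 27 lower and 3 higher in *Mtm1*-/y muscle, on the TMM scale that takes the bulk of genes as unchanged. Over all 15456 genes tested the test called 14.1% higher and 14.9% lower. The members' median log2 fold change was -0.25 against 0.02 for all genes, and 46 of the 49 lay below 0. Members fell in each complex, 4 of 4 in complex II, 6 of 10 in complex III, 7 of 18 in complex IV and 10 of 17 in complex V, whereas the 3 that rose, *Cox6a1*, *Cox8a* and *Cox6b2*, were all complex IV isoforms that muscle uses little. In RNA from whole muscle, fewer cells of a type and less RNA per cell cannot be told apart.

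These falls were relative to the median gene, and against the library total 15 of the 27 lay below 0 and 12 above. On TMM the 4 WT and 4 *Mtm1*-/y gastrocnemius libraries received normalization factors of 0.855 to 0.932 and 1.1 to 1.16. Plain library totals were an alternative added after the data were seen. With them the median of all genes moved to 0.35 and that of the members to 0.09. Then 10 members passed, 8 higher and 2 lower (*Uqcrc1*, log2 fold change -0.19, and *Atp5g1*, -0.30). Over all 15456 genes 7647 were called higher and 647 lower with library totals. *Cox6a1*, *Cox8a* and *Cox6b2* rose under both scalings. The nuclear members together held 1.73% ± 0.09 (SD, n = 4) of all WT counts and 1.72% ± 0.09 (n = 4) of all *Mtm1*-/y counts. Of 12 fast fibre markers 10 fell and 2 rose on TMM. Their summed level, 178492 to 195984 CPM in WT and 133694 to 156792 CPM in *Mtm1*-/y libraries, moved with the factors. The part of these markers in the result was not tested.

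**Figure D1:**
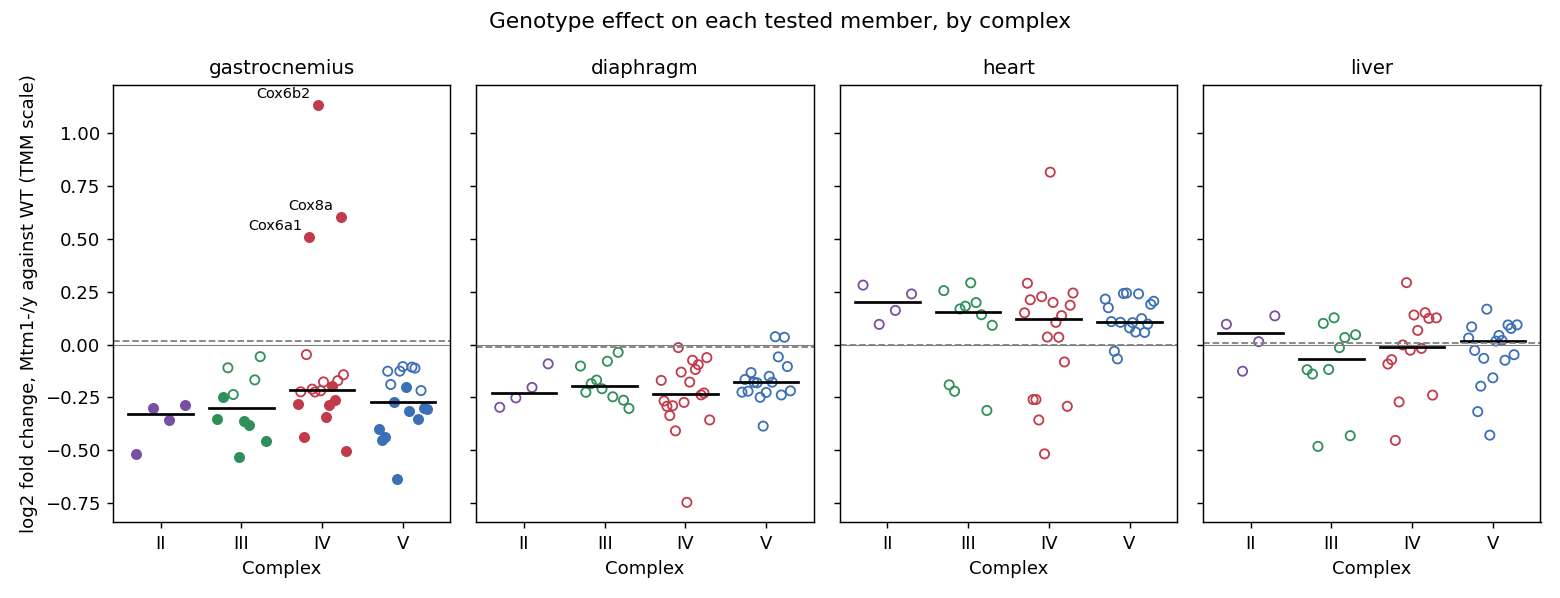
Log2 fold change of each tested member, *Mtm1*-/y against WT, on the TMM scale (y axis) by complex (x axis) in the 4 tissues; filled points passed at adjusted p under 0.05, open points did not, black bars are the medians per complex and the dashed line is the median of all genes. In gastrocnemius 27 members lie below 0 and 3 above as filled points. With library totals in place of TMM the members' median there turns from -0.25 to 0.09 and that of all genes is 0.35. No member passed in diaphragm, heart or liver.

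Complex II oxidizes succinate and feeds its electrons to ubiquinone, and each of its 4 subunits fell relative to the median gene. *Sdha*, the flavoprotein that binds succinate, stood at 884, 910, 1031 and 922 CPM in the WT and at 596, 764, 605 and 650 CPM in the *Mtm1*-/y gastrocnemius libraries, which did not overlap. It fell by 0.52 on the log2 scale (SE 0.10, adjusted p = 0.0032). *Sdhc*, a membrane anchor, had 393, 399, 411 and 385 CPM against 316, 311, 296 and 316 CPM, again without overlap (-0.36, SE 0.06, adjusted p = 0.0019). *Sdhd*, the other anchor, fell by 0.29 on the log2 scale (adjusted p = 0.013), and *Sdhb*, the iron-sulfur subunit, ranged from 365 to 414 CPM in WT and from 287 to 365 CPM in *Mtm1*-/y libraries. With library totals *Sdha* had a log2 fold change of -0.18 and *Sdhd* one of 0.05, neither past the threshold.

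In complex III, which passes electrons from ubiquinol to cytochrome c, both core proteins and the catalytic subunits were among those that fell. *Uqcrc1*, a core protein, had 908, 858, 925 and 999.5 CPM in WT and 610, 700, 619 and 625 CPM in *Mtm1*-/y gastrocnemius (log2 fold change -0.53, SE 0.08, adjusted p = 0.0011). The lowest WT library lay above the highest *Mtm1*-/y library. *Uqcrfs1*, the Rieske iron-sulfur protein, had 438, 441, 505 and 474 CPM against 359, 389, 342 and 339 CPM, and *Cyc1*, cytochrome c1, had 495, 469, 505 and 536 CPM against 369, 444, 373 and 385 CPM, both without overlap. Their log2 fold changes were -0.38 (adjusted p = 0.0050) and -0.35 (adjusted p = 0.0094). *Uqcr10* and *Uqcrc2* passed too, and the small subunits *Uqcrb*, *Uqcrh*, *Uqcr11* and *Uqcrq* did not.

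Complex V makes ATP in its catalytic head, turned by a ring of c subunits. *Atp5g1*, one of the c subunit genes, had 19.5, 21.0, 18.3 and 19.2 CPM in WT and 11.2, 14.0, 11.4 and 13.7 CPM in *Mtm1*-/y muscle. Its log2 value of -0.63 (SE 0.10, adjusted p = 0.0012) was the lowest of all 49. The groups did not overlap. *Atp5g3*, the c subunit gene with the most reads, did not pass, at 598 to 719 CPM in WT and 552 to 642 CPM in *Mtm1*-/y libraries. *Atp5b*, the catalytic beta subunit, had 3117, 3245, 3472 and 3573 CPM against 2481, 2624, 2364 and 2350 CPM (-0.45, SE 0.08, adjusted p = 0.0027). *Atp5c1*, the central stalk, had 620, 665, 678 and 693 CPM against 500, 512, 473 and 479 CPM (-0.44, SE 0.07, adjusted p = 0.0013). Genes of the head, the stalk and the c ring were thus among those that passed, and 7 of 17 tested members did not.

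Complex IV held changes in both directions. *Cox5a*, a nuclear subunit on the matrix side, had 282, 336, 316 and 325 CPM in WT and 215, 265, 220 and 231 CPM in *Mtm1*-/y gastrocnemius (log2 fold change -0.44, SE 0.09, adjusted p = 0.0049). *Cox4i1*, the common isoform of the largest nuclear subunit, had 812, 825, 874 and 909 CPM against 711, 739, 698 and 666 CPM (-0.28, adjusted p = 0.013), and with library totals its log2 fold change was 0.06. Neither gene had overlapping groups on TMM. The muscle isoform *Cox7a1* (234, 260, 263 and 248 CPM against 189, 244, 180 and 181 CPM) and its widespread counterpart *Cox7a2* (159, 186, 178 and 168 CPM against 137, 153, 136 and 142 CPM) both passed as lower.

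The 3 that rose were all far below their muscle counterparts. *Cox6a1*, the widespread form of subunit VIa, had 10.5, 7.68, 8.0 and 11.4 CPM in WT and 14.8, 11.3, 14.4 and 13.1 CPM in *Mtm1*-/y gastrocnemius (log2 fold change 0.51, SE 0.14, adjusted p = 0.026). One *Mtm1*-/y library lay just under the highest WT library. *Cox8a*, the widespread form of subunit VIII, had 6.76, 6.21, 6.83 and 8.25 CPM against 14.9, 9.32, 9.60 and 8.67 CPM, without overlap (0.60, SE 0.18, adjusted p = 0.030). *Cox6b2* had 0.50, 0.44, 0.39 and 0.48 CPM against 1.08, 0.48, 1.03 and 1.37 CPM (1.13, SE 0.31, adjusted p = 0.023), which stands for 12 to 18 reads a library in WT and 16 to 51 in *Mtm1*-/y muscle. The muscle isoforms *Cox6a2* (log2 fold change -0.21) and *Cox8b* (-0.14) did not pass.

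Markers of other cells moved in the same libraries. All 8 macrophage markers rose in *Mtm1*-/y gastrocnemius, with a summed level of 35.7 to 67.1 CPM in WT and 154 to 199.7 CPM in *Mtm1*-/y muscle, as did 4 of 8 fibroblast markers (2648 to 7536 and 4408 to 11343 CPM) and 7 of 11 white adipocyte markers (3172 to 4180 and 3367 to 4416 CPM). *Car3*, the most abundant gene of that adipocyte list, ran from 2570 to 3375 CPM in WT and from 2474 to 3213 CPM in *Mtm1*-/y muscle. The adipocyte sum therefore says little about the other markers. Of the hepatocyte markers, near 0 at 21.2 to 128 CPM in sum, 1 of 14 tested rose and 2 fell. With the adipocyte markers' mean log2 level entered as a covariate 0 members passed by edgeR and *Cox6a1* had a log2 fold change of -0.01, whereas *Uqcrc1* (-0.55), *Atp5g1* (-0.55), *Atp5b* (-0.42), *Atp5c1* (-0.40) and *Cox4i1* (-0.28) kept values near those without it. That level ran from 4.09 to 5.14 in WT and from 5.11 to 5.90 in *Mtm1*-/y libraries, so its effect and that of genotype can hardly be told apart. The part of these cells in the result was not tested otherwise. Leaving out 1 library at a time gave 17 to 30 members, 17 without WT library 3 and 19 each without WT library 4 and *Mtm1*-/y library 4. In these fits 16 members passed every time, *Sdha*, *Sdhc*, *Sdhd*, *Uqcrc1*, *Uqcrc2*, *Uqcrfs1*, *Cyc1*, *Cox4i1*, *Cox5a*, *Cox7a2*, *mt-Co1*, *Atp5a1*, *Atp5b*, *Atp5c1*, *Atp5g1* and *Atp5o*, and none of the 3 that rose was among them.

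**Figure D2:**
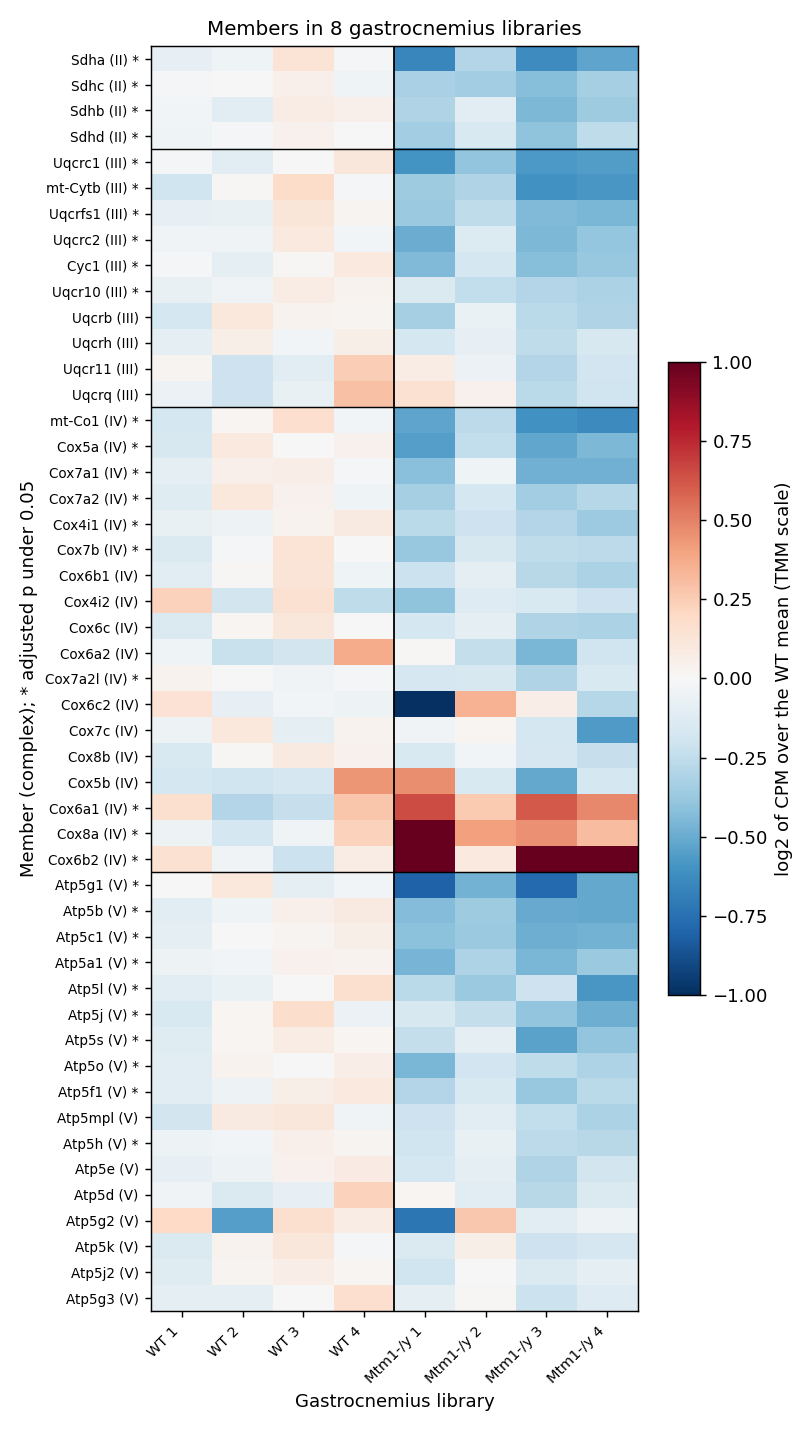
Log2 of each library's CPM over the WT mean (colour, limits at -1 and 1, TMM scale) for the 49 tested members (rows, by complex) in 4 WT and 4 *Mtm1*-/y gastrocnemius libraries (columns); an asterisk marks adjusted p under 0.05. The *Mtm1*-/y columns are blue for most members, *Mtm1*-/y library 2 the palest, and red for *Cox6a1*, *Cox8a* and *Cox6b2*. With library totals in place of TMM 8 members pass as higher and 2 as lower, against 7647 and 647 of all 15456 genes.

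Genes encoded in the mitochondrial genome were read through *mt-Cytb* and *mt-Co1*, core subunits of complexes III and IV. *mt-Co1* had 16476, 18849, 20958 and 18265 CPM in WT and 12927, 15505, 12248 and 11958 CPM in *Mtm1*-/y gastrocnemius (log2 fold change -0.50, SE 0.12, adjusted p = 0.010). *mt-Cytb* had 14464, 16679, 18807 and 16364 CPM against 12968, 13433, 10869 and 11064 CPM (-0.46). Neither gene's groups overlapped on TMM. As a share of all counts the mitochondrially encoded members made 3.13% ± 0.34 (SD, n = 4) in WT and 2.83% ± 0.31 (n = 4) in *Mtm1*-/y muscle, and these ranges did overlap.

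In the diaphragm, the main breathing muscle, 0 members passed by edgeR, 0 had an unadjusted p under 0.05 and 0 passed by DESeq2. Over all genes edgeR called 0% higher and 0.0119% lower, 10.8% had an unadjusted p under 0.05, and DESeq2 called 314 higher and 124 lower of 18507. Of 49 tested members 47 lay below 0, with a median log2 fold change of -0.20 (-0.16 with library totals) against -0.01 for all genes. *Atp5g1* had the smallest p, at 20.3, 24.3, 27.1 and 22.9 CPM in WT and 19.5, 19.2 and 21.0 CPM in *Mtm1*-/y diaphragm, which overlapped (log2 fold change -0.25, SE 0.12, adjusted p = 0.52). *Cox6c* followed with 236, 277, 319 and 286 CPM against 232, 241 and 220 CPM (-0.27), then *Cox5a* (-0.29) and *Atp5l* (-0.24). The mitochondrially encoded members held 4.91% ± 0.49 (n = 4) of WT and 4.02% ± 0.26 (n = 3) of *Mtm1*-/y counts, and here the groups did not overlap.

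The widespread isoforms varied between diaphragm libraries more than between genotypes. *Cox6a1* had 68.8, 43.2, 22.2 and 76.8 CPM in WT libraries 1 to 4 and 33.4, 78.3 and 18.0 CPM in *Mtm1*-/y libraries 1, 2 and 4. *Cox8a* had 38.1, 21.6, 17.9 and 45.3 CPM against 18.9, 45.9 and 14.0 CPM, and *Cox6b2* had 5.24, 4.96, 1.99 and 6.95 CPM against 2.89, 8.11 and 2.22 CPM. The hepatocyte markers summed to 48817, 30530, 601 and 36960 CPM and to 4386, 60188 and 1109 CPM in the same libraries. For each of the 3 isoforms WT library 3 and *Mtm1*-/y library 4, the least in hepatocyte markers, were the lowest and *Mtm1*-/y library 2, the most, was the highest. *Cox6a2* did not follow that order, at 604, 538, 753 and 676 CPM in WT and 536, 585 and 331 CPM in *Mtm1*-/y diaphragm. White adipocyte markers summed to 5537, 5629, 3138 and 8555 CPM in WT and to 3257, 4463 and 1912 CPM in *Mtm1*-/y libraries. Brown adipocyte markers summed to 68.5, 110, 31.0 and 140 CPM and to 76.3, 104 and 35.0 CPM. Both were also lowest in WT library 3 and *Mtm1*-/y library 4, and the part of either tissue in the isoform levels was not tested. With the hepatocyte markers as a covariate the members' median was -0.19.

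**Figure D3:**
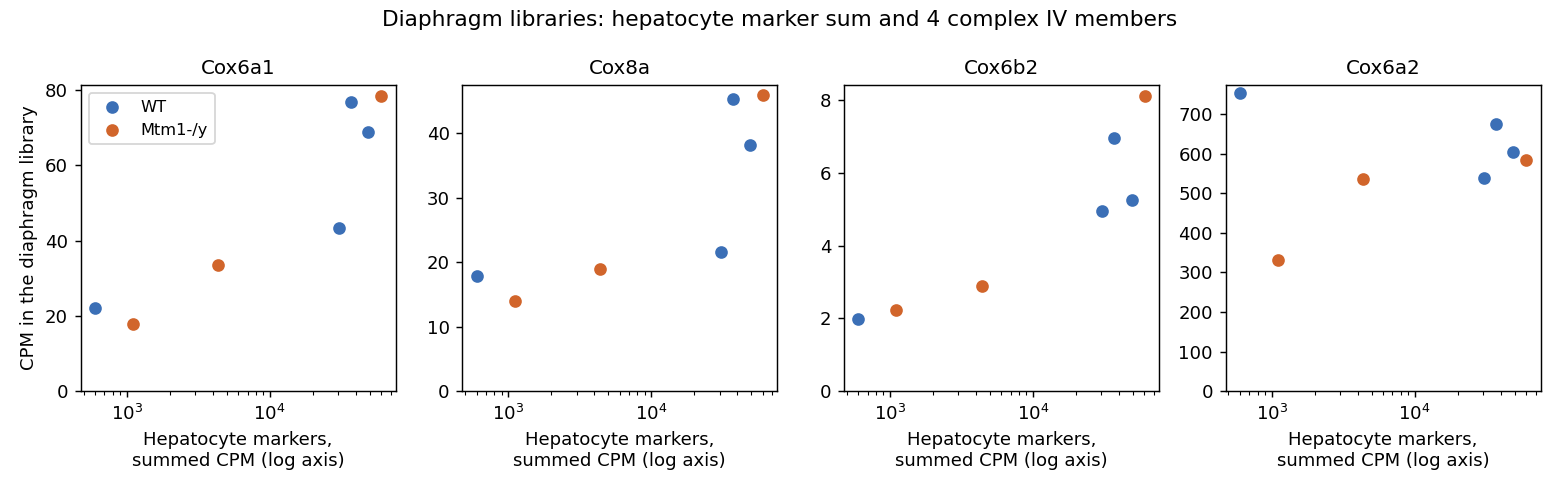
CPM of *Cox6a1*, *Cox8a*, *Cox6b2* and *Cox6a2* (y axes, from 0) against the summed CPM of 15 hepatocyte markers (x axes, log scale) in 4 WT and 3 *Mtm1*-/y diaphragm libraries, 1 point a library. *Cox6a1*, *Cox8a* and *Cox6b2* are low in the 2 libraries with 601 and 1109 CPM of hepatocyte markers and highest in the library with 60188 CPM.

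In the heart 0 of 49 members passed by edgeR or DESeq2 and 1 had an unadjusted p under 0.05, while edgeR called 0% of all genes higher and 0.00656% lower, 8.88% had an unadjusted p under 0.05, and DESeq2 called 19 higher and 66 lower of 18771. Here 38 members lay above 0, and their median log2 fold change was 0.14 (0.09 with library totals). That median rested on WT heart library 4, without which it was 0.01. This library had 2.32% of its counts in nuclear members against 2.86 to 3.18% in the other WT hearts, and cardiomyocyte markers summing to 80111 CPM against 50015 to 55745 CPM. Slow fibre markers, led in heart by *Atp2a2*, went the other way, at 25677 CPM against 31882 to 33127 CPM in the other WT hearts. White adipocyte markers also moved, summing to 917 to 1387 CPM in WT and 844 to 913 CPM in *Mtm1*-/y hearts. Their most abundant gene, *Fabp4*, ran from 442 to 563 and from 461 to 577 CPM. With the mean log2 level of the adipocyte markers as a covariate the members' median was -0.19. That level was 4.22 to 5.55 in WT and 3.07 to 3.55 in *Mtm1*-/y hearts, without overlap, so its effect and that of genotype cannot be told apart. *Cox6a1* had the smallest p (unadjusted p = 0.0082, edgeR), with 32.7, 29.2, 26.3 and 29.8 CPM in WT and 24.3, 24.9, 24.2 and 25.1 CPM in *Mtm1*-/y hearts. Its groups did not overlap, yet the log2 fold change of -0.26 (SE 0.08) had an adjusted p of 0.55. *Uqcrq* (-0.31), *Cox8a* (-0.29) and *Cox5b* (-0.26) came next.

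In the liver 0 of 45 tested members passed by edgeR or DESeq2, and 4 had an unadjusted p under 0.05. By edgeR 0% of all genes were called in either direction. Even *Mtm1* did not pass there (log2 fold change -1.60, SE 0.23, edgeR adjusted p = 0.37), although its groups did not overlap. A count of 0 therefore cannot show that the members were unchanged in liver. The members' median log2 fold change was -0.0017. *Uqcr11*, a small subunit of complex III, had 92.5, 90.3 and 101 CPM in WT and 82.1, 67.0, 63.8 and 58.1 CPM in *Mtm1*-/y liver, without overlap (-0.48, SE 0.13, adjusted p = 0.97). The other 3 were *Atp5d* (-0.32), *Cox5b* (-0.45) and *Uqcrq* (-0.43). The mitochondrially encoded members held 2.05% ± 0.19 (n = 3) of WT and 2.12% ± 0.15 (n = 4) of *Mtm1*-/y liver counts.

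**Figure D4:**
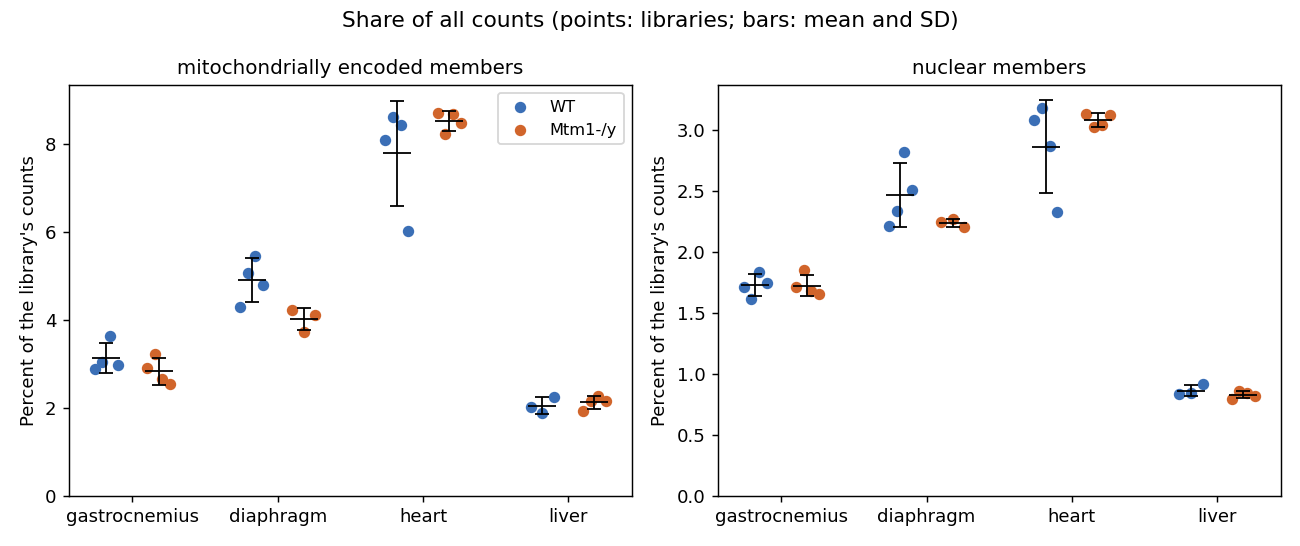
Percent of each library's counts (y axes, from 0) held by the mitochondrially encoded members (left) and by the nuclear members (right) in the 4 tissues, with points for libraries and bars for the mean and SD of each genotype. Shares are highest in heart and lowest in liver; in gastrocnemius the nuclear share is 1.73% in WT and 1.72% in *Mtm1*-/y libraries, and 1 WT heart library with 2.32% lies below the others.

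Whether the genotype effect itself differed between tissues was tested in joint fits, which treat libraries of different tissues as independent. Between heart and gastrocnemius it differed for 19 of 49 members, 17 with a higher effect in heart and 2 with a lower one. Over all genes 9.94% were higher and 9.89% lower. With library totals 2 members were higher and 6 lower, against 405 and 6577 of all 16627 genes. The median difference of all genes was then -0.44. *Sdha* differed by 0.82 on the log2 scale (SE 0.18, adjusted p = 0.0064), with a fold change of -0.52 in gastrocnemius and 0.28 in heart, where it had 1478, 1602, 1584 and 1023 CPM in WT and 1781, 1656, 1659 and 1813 CPM in *Mtm1*-/y libraries. *Atp5g1* differed by 0.89 (SE 0.20, adjusted p = 0.0078) and *Atp5b* by 0.64 (SE 0.15, adjusted p = 0.0086). *Cox6a1* differed the other way by -0.75 (SE 0.17, adjusted p = 0.0075), with fold changes of 0.51 in gastrocnemius and -0.26 in heart, and *Cox8a* did so by -0.87 (adjusted p = 0.021). *Sdha*, *Atp5g1*, *Cox6a1* and *Cox8a* passed in the same direction with library totals, and *Atp5b* did not. Markers of other cells moved in this contrast too, 13 of 15 hepatocyte markers being higher and 1 lower, and 8 of 8 macrophage, 8 of 11 white adipocyte, 5 of 7 brown adipocyte and 3 of 8 fibroblast markers lower, and their part in the result was not tested.

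These differences were sensitive to single libraries. Leaving out 1 library gave 10 to 28 members, with 10 without *Mtm1*-/y gastrocnemius 3, *Mtm1*-/y heart 1 or *Mtm1*-/y heart 4, 11 without WT gastrocnemius 2 or 4, *Mtm1*-/y gastrocnemius 1 or *Mtm1*-/y heart 3, and 19 without WT heart 4. *Sdha*, *Sdhc*, *Uqcrc1*, *Cox6a1*, *Cox8a*, *Atp5a1*, *Atp5b*, *Atp5c1* and *Atp5g1* passed in every such fit. Between heart and diaphragm 0 members differed by edgeR (3 at an unadjusted p under 0.05), against 0.00573% of all genes higher and 0% lower. Between diaphragm and gastrocnemius 0 differed (1 at an unadjusted p under 0.05), against 0.114% higher and 0.166% lower. DESeq2 also called 0 in both comparisons.

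The WT libraries give the levels the genotype acts on. Per kilobase of exon *mt-Cytb* and *mt-Co1* were the most abundant members in each tissue, at 15945 ± 1701 and 13272 ± 1306 CPM per kb in gastrocnemius (SD, n = 4), 25265 ± 4666 and 22853 ± 4505 CPM per kb in heart (n = 4), and 9984 ± 1304 and 8567 ± 939 CPM per kb in liver (n = 3). Of the nuclear members *Atp5a1*, of the catalytic head, stood highest in gastrocnemius, diaphragm and heart, at 1080 ± 38 in gastrocnemius and 451 ± 22 CPM per kb in liver, and *Atp5b* at 871 ± 57 and 382 ± 33 CPM per kb. *Cox6b1*, the main form of subunit VIb, stood at 669 ± 46 CPM per kb in gastrocnemius, 708 ± 64 in diaphragm, 779 ± 162 in heart and 518 ± 40 in liver. Levels in the 3 muscle tissues overlapped for *Cox6b1*, *Atp5a1* and *Atp5b*. *Cox7c*, *Atp5l* and *Atp5g2* were below 3 CPM per kb everywhere, and each shares reads with processed copies, whose part in the low level was not tested.

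The muscle isoforms of complex IV were among the most abundant nuclear members in muscle and almost unread in liver. *Cox8b* stood at 915 ± 67 CPM per kb in gastrocnemius, 1041 ± 191 in diaphragm, 748 ± 202 in heart and 0.16 ± 0.17 in liver, and *Cox6a2* at 837 ± 173, 803 ± 104, 851 ± 73 and 0.16 ± 0.06 CPM per kb. In WT liver *Cox8b* had 4, 0 and 1 reads and *Cox6a2* 2, 3 and 3. *Cox7a1* kept a low level there, at 4.0 ± 0.83 CPM per kb (62, 67 and 40 reads) against 517 ± 27, 611 ± 98 and 694 ± 122 in gastrocnemius, diaphragm and heart. Ranges of gastrocnemius, diaphragm and heart overlapped for each of these 3 genes.

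Of the widespread isoforms *Cox6a1* and *Cox8a* ran the other way, and *Cox7a2* did not. *Cox6a1* went from 14.7 ± 2.9 CPM per kb in gastrocnemius through 35.0 ± 3.0 in heart to 209 ± 34 in liver, and *Cox8a* from 12.5 ± 1.6 through 32.1 ± 6.8 to 91.8 ± 17.8 CPM per kb. *Cox7a2* was lower in liver than in heart, at 201 ± 14, 244 ± 37 and 154 ± 10 CPM per kb. *Cox6b2* stood at 0.45 ± 0.05, 0.85 ± 0.42 and 17.8 ± 4.3 CPM per kb in the same tissues. Subunits VIa and VIII thus changed isoform almost fully between muscle and liver, whereas in muscle subunit VIIa used both forms, *Cox7a1* holding 59.3% ± 0.7 of *Cox7a* reads in gastrocnemius and 1.46% ± 0.36 in liver.

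**Figure D5:**
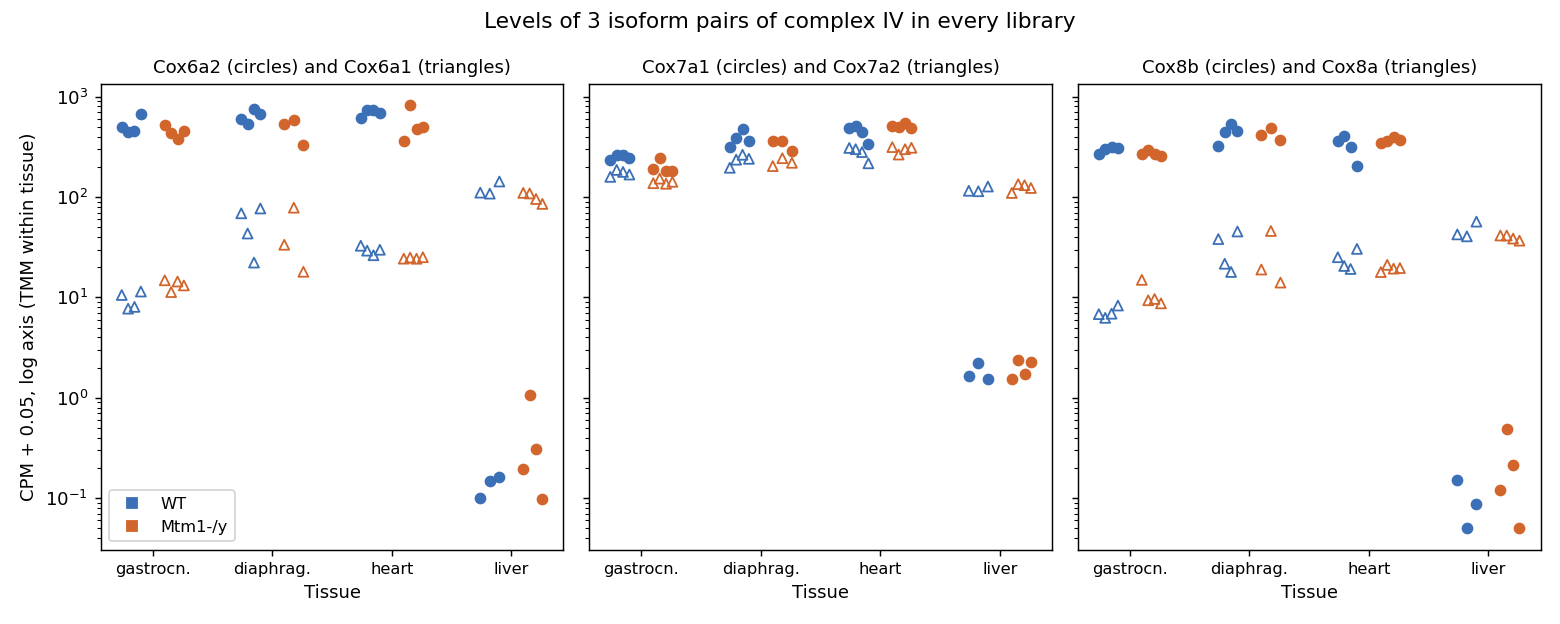
CPM + 0.05 (y axis, log scale, TMM within tissue) of 3 isoform pairs of complex IV in all 30 libraries, with muscle isoforms as circles and widespread isoforms as triangles, WT blue and *Mtm1*-/y orange. *Cox6a2*, *Cox7a1* and *Cox8b* fall to near 0 in liver, and the *Cox6a1* and *Cox8a* triangles are lowest in WT gastrocnemius.

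Start-site sequence is shown for 3 of these isoform genes, because *Cox8b* and *Cox8a* form a muscle and widespread pair and *Cox8a* and *Cox6a1* rose in *Mtm1*-/y gastrocnemius. The windows reach from 250 bases before to 50 bases after the RefSeq start (GRCm38.p6), and capitals mark matches on either strand to TATAAA, GCATGCGC (NRF1), CCGGAAGT (GABPA), AAGGTCA (ERR), GGGGCGGG (Sp1) or the MEF2 motif. The muscle gene *Cox8b* lies at chr7:140900397-140900696 on the minus strand, *Cox8a* at chr19:7217567-7217866 on the minus strand and *Cox6a1* at chr5:115348909-115349208 on the minus strand.
Cox8b: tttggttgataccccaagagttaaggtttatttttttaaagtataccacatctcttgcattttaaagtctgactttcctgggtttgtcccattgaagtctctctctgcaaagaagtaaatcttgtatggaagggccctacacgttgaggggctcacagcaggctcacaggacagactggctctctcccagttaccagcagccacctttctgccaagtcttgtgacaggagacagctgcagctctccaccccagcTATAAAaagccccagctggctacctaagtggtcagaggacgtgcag
Cox8a: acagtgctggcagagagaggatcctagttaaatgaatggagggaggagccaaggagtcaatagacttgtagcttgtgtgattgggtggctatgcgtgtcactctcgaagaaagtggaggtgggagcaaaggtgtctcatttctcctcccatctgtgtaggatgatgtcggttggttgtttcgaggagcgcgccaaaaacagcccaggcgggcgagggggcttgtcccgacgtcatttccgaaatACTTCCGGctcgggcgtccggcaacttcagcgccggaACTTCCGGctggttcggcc
Cox6a1: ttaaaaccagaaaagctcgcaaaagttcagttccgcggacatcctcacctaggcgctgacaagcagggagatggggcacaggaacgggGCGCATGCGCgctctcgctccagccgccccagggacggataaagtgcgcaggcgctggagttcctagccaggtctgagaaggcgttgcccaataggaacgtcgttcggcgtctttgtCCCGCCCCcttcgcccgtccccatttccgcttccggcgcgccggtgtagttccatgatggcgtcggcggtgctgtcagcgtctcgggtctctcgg

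The *Cox8b* window held 2 CpG and a TATAAA match, which began 4 bases after the RefSeq start and not before it. The *Cox8a* window held 19 CpG and 2 matches to CCGGAAGT on the minus strand of the window. These began at -6 and 31 bases from the start. The *Cox6a1* window held 32 CpG, a pair of overlapping GCATGCGC matches on opposite strands and a GGGGCGGG match. The muscle and widespread forms of subunit VIIa differed likewise in CpG, with 7 in the *Cox7a1* window and 20 in the *Cox7a2* window, and neither held any of the 6 motifs. The median over all 32851 windows of the table was 7 CpG. Windows were found for 34 of the 53 members, 37 windows in all, and GCATGCGC stood in 18.9% of them against 2.71% of all windows, AAGGTCA in 13.5% against 4.72%, CCGGAAGT in 10.8% against 3.89%, GGGGCGGG in 21.6% against 16.5%, TATAAA in 8.11% against 13.6% and the MEF2 motif in 2.7% against 3.69%. Matches are letters in a window and were not tested as binding sites.

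Between WT heart and WT gastrocnemius 14 of 49 members differed, 12 higher and 2 lower in heart (9 and 2 with DESeq2 size factors), against 32.6% and 28.7% of all genes. *Cox8a* was higher by 1.36 on the log2 scale (SE 0.27, adjusted p = 5e-04, edgeR), *Cox6a1* by 1.25 (SE 0.30, adjusted p = 0.0022) and *mt-Co1* by 0.78 (SE 0.22, adjusted p = 0.0066). *Atp5e*, the epsilon subunit of the ATP synthase, was lower by -0.62 and *Uqcr10* by -0.41. Leaving out WT gastrocnemius 1 gave 9 members and leaving out WT heart 4 gave 24. Of WT diaphragm against WT gastrocnemius 3 members were higher and 1 lower, against 30.6% and 23.8% of all genes. The 3, *Cox6b2* (3.03), *Cox6a1* (2.12) and *Cox8a* (1.76), were those lowest in the diaphragm libraries with the least hepatocyte and adipocyte markers. With WT diaphragm 3 as the only diaphragm, assumed to vary like the other groups, they stood at 1.79, 0.90 and 1.01 and still passed.

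Between WT liver and WT heart 46 of 49 members differed, 4 higher and 42 lower in liver (4 and 41 with DESeq2 size factors), against 35.6% and 40.8% of all genes. Their median log2 difference was -1.05, and complexes II, III, IV and V had medians of -0.80, -1.06, -1.17 and -1.21. *Cox6b2* (4.38), *Cox6a1* (2.58), *Cox8a* (1.52) and the c subunit gene *Atp5g2* (0.62) were higher in liver, *Atp5g2* in only 4 of the 15 fits that left out 1 library and the other 3 in every such fit. *Cox7a1* was lower by -7.44 (SE 0.24, adjusted p = 8.1e-12, edgeR), and the fitted differences of *Cox6a2* (-12.4) and *Cox8b* (-12.0) rest on the few liver reads given above.

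Ratios between paired isoforms within a library do not depend on the scaling of libraries. In gastrocnemius the log2 ratio of *Cox6a2* to *Cox6a1* was 5.78 ± 0.14 (SD, n = 4) in WT and 5.06 ± 0.24 (n = 4) in *Mtm1*-/y muscle, and that of *Cox8b* to *Cox8a* was 5.42 ± 0.18 and 4.70 ± 0.36. Neither pair's groups overlapped, and each difference had p = 0.029 in an exact two-sided permutation test, the smallest this design allows. The ratio of *Atp5g1* to *Atp5g3* went from -5.03 ± 0.18 to -5.57 ± 0.14 with the same exact p. Adjusted over the 20 tests of 5 pairs in 4 tissues these permutation p-values became 0.19, so 0 of 20 passed. With no p able to lie under 0.029, passing needed most of the 20 tests at that floor, so this count could hardly have come out otherwise. The share of *Cox6a2* among *Cox6a* reads nevertheless stayed high, at 98.2% ± 0.2 in WT and 97.1% ± 0.5 in *Mtm1*-/y libraries, and that of *Cox8b* among *Cox8* reads was 97.7% ± 0.3 and 96.2% ± 1.0.

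The ratio of *Cox7a1* to *Cox7a2* was 0.54 ± 0.04 in WT and 0.47 ± 0.14 in *Mtm1*-/y gastrocnemius (exact permutation p = 0.40), and overlapped between genotypes in every tissue. In gastrocnemius *Cox4i2* made 0.34% ± 0.07 of *Cox4i* reads in WT and 0.36% ± 0.03 in *Mtm1*-/y libraries, and 0.56% ± 0.07 and 0.63% ± 0.07 in heart. In diaphragm the ratio of *Cox6a2* to *Cox6a1* was 3.75 ± 0.92 in WT (n = 4) and 3.70 ± 0.70 in *Mtm1*-/y muscle (n = 3), a spread that goes with the *Cox6a1* levels above. In heart it was 4.56 ± 0.24 and 4.39 ± 0.48, and in liver -10.3 ± 0.4 (n = 3) and -8.75 ± 1.59 (n = 4). All of these groups overlapped.

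Genes that serve the complexes changed in gastrocnemius as well, in 5 lists of other genes. Of 36 tested assembly factors 10 fell and 1 rose on the TMM scale, whereas 2 fell and 13 rose with library totals. Over all genes 14.9% fell and 14.1% rose on TMM, and 647 fell and 7647 rose of 15456 with library totals. *Atpaf1*, which assembles the F1 head of the ATP synthase, went from 19.4 ± 0.7 to 10.9 ± 1.0 CPM (-0.82 on the log2 scale, SE 0.08, edgeR adjusted p = 0.00018), *Coa7*, a complex IV assembly factor, from 31.5 ± 1.1 to 18.9 ± 1.4 CPM (-0.74), and *Uqcc1*, a complex III assembly factor, from 124 ± 4 to 95.6 ± 8.0 CPM (-0.38). The WT and *Mtm1*-/y means of each lay more than 3 SD apart. Of 7 tested electron and metabolite carriers 3 fell on TMM (1 fell and 2 rose with library totals), cytochrome c (*Cycs*, -0.60), the ADP/ATP carrier *Slc25a4* (-0.45) and the phosphate carrier *Slc25a3* (-0.30).

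Of 4 tested supercomplex and associated factors *Higd2a* (-0.37) and *Ndufa4* (-0.30) fell on TMM and *Mcu*, the calcium uniporter, rose by 0.37, whereas 0 fell and 1 rose with library totals. All 7 tested mitochondrially encoded complex I and ribosomal RNA genes fell on TMM and 1 did with library totals, with *mt-Nd2* at -0.60, *mt-Nd4* at -0.55 and *mt-Nd1* at -0.53. Of 14 general mitochondrial genes 8 fell on TMM (2 fell and 4 rose with library totals), among them the outer membrane channel *Vdac1* (-0.69), the fusion protein *Mfn2* (-0.50) and citrate synthase (*Cs*, -0.47). In diaphragm, heart and liver 0 genes of these lists passed by edgeR, with at most 2, 5 and 3 of a list at an unadjusted p under 0.05, and DESeq2 called 1 mitochondrially encoded gene in diaphragm and 0 otherwise. The genotype effect was higher in heart than in gastrocnemius for 10 of 36 assembly factors and 9 of 14 general mitochondrial genes on TMM. With library totals it was higher for 2 and 1 of them and lower for 9 and 2. Over all 16627 genes 9.94% were higher and 9.89% lower on TMM, and 405 higher and 6577 lower with library totals.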

How the data were processed

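Polyadenylated RNA was sequenced as stranded single-end reads of 50 bases in 30 libraries. Per the labels and the study's methods, the authors trimmed reads (cutadapt 1.10), aligned them to mm10 (STAR 2.5.3a) and deposited raw counts of uniquely aligned reads per Ensembl gene (HTSeq 0.6.1p1, union mode). Totals of 24873817 to 44289343 counts set the precision. Each tissue was fitted alone with edgeR 4.0.16 (R 4.3.3) on the deposited counts, with TMM factors, a filterByExpr count minimum of 10 and the quasi-likelihood test, and p-values were adjusted over all genes tested. Tissue and effect differences came from joint fits of the groups concerned, with libraries of different tissues taken as independent. CPM are TMM-scaled within a tissue, or over all WT libraries where given per kb of exon (GENCODE M21 annotation). Marker sums and shares use library totals. Log2 isoform ratios used a pseudocount of 0.5 count and exact permutation tests. The test was checked on simulated gastrocnemius counts in which 195 of 15240 genes were changed. There 63% of the genes changed by 1 on the log2 scale and 16.8% of those changed by 0.5 were recovered. Start-site windows came from RefSeq.

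The members and the gene lists were chosen with earlier results of these data known. Named members are the mitochondrially encoded ones, the isoform genes, up to 3 per complex and direction with the smallest p, the 4 with the smallest p where none passed, up to 4 per effect difference and 3 up and 3 down per WT comparison above 5 CPM; *Sdhb*, *Uqcr10*, *Uqcrc2*, *Uqcrb*, *Uqcrh*, *Uqcr11*, *Uqcrq*, *Atp5a1* and *Atp5o* appear beyond these. Alternatives were DESeq2 1.42.0, DESeq2 size factors, no filter, mitochondrial genes left out, a replicate block, marker covariates, the study's fold threshold and leaving out each library. Library totals, a GC correction and WT diaphragm 3 alone were added after the data were seen. *mt-Atp8* and *Cox8c* were not analysed here.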

Additional observations from a re-analysis of the deposited data

Results flagged for a closer look

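Isoform ratios and the shares of counts held by nuclear and mitochondrially encoded members were screened for a library that stood apart from the other 3 of its group, and 6 of 42 groups had one, where chance gives about 1 in 20 groups. The log2 ratio of *Cox6a2* to *Cox6a1* was 5.58 in WT gastrocnemius 1, apart from the other WT gastrocnemius libraries. That of *Cox7a1* to *Cox7a2* was 0.48 in WT gastrocnemius 2 and 0.78 in WT heart 2. That of *Cox4i2* to *Cox4i1* was -7.21 in WT heart 2 and -7.06 in *Mtm1*-/y heart 3. That of *Atp5g1* to *Atp5g3* was -5.20 in WT heart 4, the heart library with the lowest share of nuclear members. No library that stood apart in *Cox6a2* to *Cox6a1* removed the gap between the gastrocnemius genotypes, since WT gastrocnemius 1, the lowest WT library, still lay above the highest *Mtm1*-/y library at 5.28.

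The genotype effect differed between heart and gastrocnemius by edgeR's test of the difference for the 4 members with the smallest p. *Sdha* differed by 0.82 and *Atp5g1* by 0.89 on the log2 scale, both also past the threshold with library totals (0.42 and 0.49). *Atp5b* differed by 0.64, and by 0.24 without passing with library totals. *Cox6a1* differed by -0.75, and by -1.16 with library totals.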

How the results depend on the processing

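The number of members called in gastrocnemius, 30, was 17 without a filter on low counts, 0 with the white adipocyte covariate, 1 with the study's fold threshold, 10 with library totals and 17 to 30 without single libraries. The number whose effect differed between heart and gastrocnemius, 19, was 29 by DESeq2, 8 with library totals and 10 to 28 without single libraries. The number differing between WT heart and WT gastrocnemius, 14, was 9 to 24 without single libraries. The members' median was 0.088 in gastrocnemius with library totals, against 0.35 for all genes, and -0.19 in heart with the white adipocyte covariate. That covariate did not overlap between genotypes in heart and barely did in gastrocnemius. *Cox6a1* turned to -0.010 in gastrocnemius with that covariate, whereas *Uqcrc1* (-0.55) and *Atp5g1* (-0.55) kept their size. With library totals 12 of the 27 members that fell in gastrocnemius lay above 0, among them *Sdhd* (0.048), *Cox4i1* (0.056), *Cox7a2* (0.053), *Cox7a2l* (0.14) and *Cox7b* (0.076), and the heart minus gastrocnemius difference of *Cox7a2l* turned to -0.16. The cause was not tested, except that library totals differ from TMM in the scale alone. With a GC correction 25 members passed in gastrocnemius (22 lower, 3 higher). Counts of 0 in diaphragm, heart and liver stayed 0 in every alternative run.

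Same-numbered libraries of the 2 genotypes did not deviate together in every pair of any tissue. So few pairs cannot settle whether the numbers pair them, and the main fits took them as unpaired. With the replicate number as a block 23 members passed in gastrocnemius and 7 differed between heart and gastrocnemius.

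Depth limits *Cox6b2* in gastrocnemius, *Cox8b* and *Cox6a2* in liver and the 4 untested members. The simulation changed 195 of 15240 genes in the gastrocnemius design alone, whereas the real test there called 4479 of 15456. Its recovery therefore does not measure how many changed members were missed, in this or other tissues. Members that did not pass cannot be called unchanged.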
